A study of Mus musculus with 24 samples.

Results

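The contractile genes of smooth muscle were followed through RNA sequencing libraries from the distal small intestine of mice: Acta1, Acta2, Actg2, Myh11, Des, Tagln, Cnn1, Mylk, Myl9 and Lmod1. They were taken by symbol and make up 10 of the 55536 genes in the deposited read-count table. The members were chosen by measured values of these data, since Acta1 was 1 of 202 genes that shared the smallest adjusted p, 0.582, between the 2 metformin-treated diets, where no gene passed 0.05. Values of that comparison are therefore given as a description without a test. The animals were 24 C57BL/6N mice, an inbred strain, 4 to 5 weeks old at the start, in 4 groups of 3 males and 3 females with 1 library per animal and each animal from a different cage. The CD group received a control diet with 10% of its energy from fat and the HFD group a high-fat diet with 60%, both without metformin. The CDmetf and HFDmetf groups ate these same diets and, after 20 weeks, were treated with the antidiabetic metformin for 10 weeks, dosed at 50 mg/kg/day. The labels name no altered allele or transgene.

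In the wall of the gut, smooth muscle cells form the outer muscle layers and the thin muscle sheet beneath the mucosa, and they also ring the blood vessels. Contraction starts when calcium, bound to calmodulin, turns on myosin light chain kinase (Mylk), which phosphorylates the regulatory light chain (Myl9) so that smooth muscle myosin (Myh11) pulls on actin filaments. Actg2 encodes the actin typical of visceral muscle, Acta2 that of vascular muscle and of many other contractile cells, and Acta1 that of skeletal muscle. Calponin (Cnn1) and transgelin (Tagln) bind actin, leiomodin (Lmod1) starts new filaments, and desmin (Des) builds the intermediate filaments that tie the contractile apparatus together. Many of these genes are switched on by serum response factor with myocardin through a short promoter element called the CArG box.

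Depth differed widely, from 1829690 to 40606442 reads on genes per library (median 3467308). In the library CD M3, 85.4% of these reads fell on its 10 largest genes, against 9.22% to 36.6% in the other libraries. Sex-linked transcripts went against the label in 2 libraries, those labelled HFD M2 and HFD F2. Markers of the distal ileum (Fabp6, Slc10a2 and Fgf15) summed to between 5.69 CPM in HFD M3 and 3635 CPM in CD M2, so that HFD M3 all but lacked them. Levels below are read counts scaled to library size (CPM) with library sizes normalised by TMM, a scaling that discounts the most extreme genes.

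The upstream sequences of 3 members are shown because a CArG box is the feature that their shared regulation is known for. RefSeq windows of the 250 bases before the start (GRCm38.p6) were at hand for 7 of the 10 members, and they were searched on both strands for the CArG box. Capitals mark each CArG box, complete or with 1 other letter in its A and T middle, and each sequence reads 5′ to 3′ towards the start.
Acta1, chr8:123894776-123895025, minus strand: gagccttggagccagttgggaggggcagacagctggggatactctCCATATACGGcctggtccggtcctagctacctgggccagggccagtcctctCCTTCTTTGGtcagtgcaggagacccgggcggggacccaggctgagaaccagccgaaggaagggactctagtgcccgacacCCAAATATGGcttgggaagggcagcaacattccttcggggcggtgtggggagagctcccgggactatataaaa
Acta2, chr19:34255374-34255623, minus strand: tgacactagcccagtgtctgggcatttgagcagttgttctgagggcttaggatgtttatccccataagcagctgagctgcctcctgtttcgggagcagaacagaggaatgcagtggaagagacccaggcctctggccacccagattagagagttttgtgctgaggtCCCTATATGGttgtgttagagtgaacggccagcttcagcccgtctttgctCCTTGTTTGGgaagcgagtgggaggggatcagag
Myl9, chr2:156775214-156775463, plus strand: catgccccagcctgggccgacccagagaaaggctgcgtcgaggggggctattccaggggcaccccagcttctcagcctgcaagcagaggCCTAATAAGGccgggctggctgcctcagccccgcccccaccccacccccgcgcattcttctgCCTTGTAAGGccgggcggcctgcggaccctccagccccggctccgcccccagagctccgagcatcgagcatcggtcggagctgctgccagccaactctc

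A complete box was present in 2 of the 7 windows, against 1.47% of the 32851 windows of all genes. It began 73 bases before the start in Acta1 and 161 bases before it in Myl9. Counting boxes with 1 other letter added Acta2, making 3 of 7 windows against 8.59% of all windows. The windows of Cnn1, Des, Lmod1 and Mylk held none, which says only that these letters are not in these windows, and Actg2, Myh11 and Tagln had no window. The Acta1 and Des windows lay wholly upstream of the gene in the GENCODE annotation. Inside the annotated gene lay 217 bases of the Acta2 window, 44 of the Myl9 window, 37 of the Cnn1 window and 6 of the Lmod1 window. The Mylk window lay inside its annotated gene with all 250 bases.

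Of the 10 members, 8 were abundant and present in every library, while Acta1 and Tagln were scarce. To compare genes, CPM was divided by the exon length in kb. Acta2 (ENSMUSG00000035783, chr19:34241090-34255590) led with a median of 210 CPM per kb over the 24 libraries, and it exceeded the next member, Myl9, in 24 of 24. Myl9 (ENSMUSG00000067818, chr2:156775420-156781658) had a median of 140 CPM per kb. Then came Myh11 (ENSMUSG00000018830, chr16:14194535-14291372) with 95.3 and Actg2 (ENSMUSG00000059430, chr6:83512905-83536265) with 91.7 CPM per kb. These 2 could not be ordered, since Myh11 was above Actg2 in only 13 of 24 libraries.

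**Figure D1:**
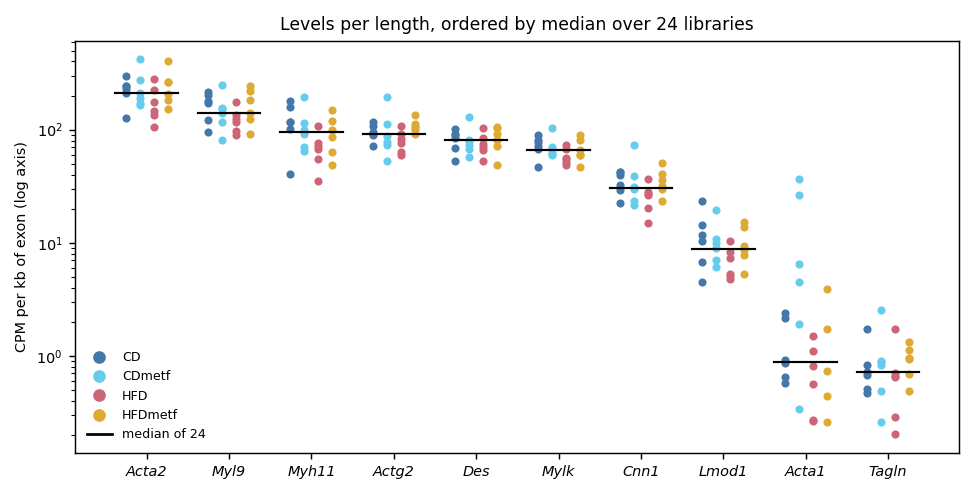
Level of each member in CPM per kb of exon (vertical axis, logarithmic) with members ordered by median (horizontal axis). Points are the 24 libraries coloured by group and bars are medians, and the HFDmetf M2 library, with 0 reads of Acta1, is not drawn for that gene. The 8 abundant members lie between 4.47 and 417 CPM per kb, and Acta1 spreads over the widest range.

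Des (ENSMUSG00000026208, chr1:75360329-75368579) followed with a median of 80.2 CPM per kb and Mylk (ENSMUSG00000022836, chr16:34745210-35002420) with 66.6, in that order in 22 of 24 libraries. Cnn1 (ENSMUSG00000001349, chr9:22099216-22109630) had 30.6 and Lmod1 (ENSMUSG00000048096, chr1:135324807-135368065) 8.81 CPM per kb. Lmod1 was above Acta1 in 22 of 24 libraries. Acta1 (ENSMUSG00000031972, chr8:123891769-123894751) had a median of 0.892 CPM per kb, and the value of Tagln (ENSMUSG00000032085, chr9:45929619-45936058) was 0.717 CPM per kb. Their order did not hold from library to library, with Acta1 above Tagln in 15 of 24.

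The count of Tagln, a gene known for its abundance in smooth muscle, is uncertain here. It received between 1 and 75 reads per library, too few to pass the filter on low counts, so that 9 of the 10 members entered the tests. Of its 1988 exonic bases, 1349 (67.9%) lie under exons of genes on the opposite strand, 1241 of them under Gm48529 and 108 under Pcsk7. The library kit kept the strand of the RNA, but the strand counted is not given in the sources used here, and reads that 2 genes share are set aside as ambiguous. The part of this overlap in the low count was not tested. The same overlap covers 5.86% of the exonic bases of Des, 6.85% of those of Mylk and 0% of those of the other 7 members, and no stretch of 100 bases in the 3 actins recurs in another gene.

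The 8 abundant members moved together from library to library, and Acta1 did not follow them. Over their 28 pairs, Pearson's r of log2 CPM across the 24 libraries ran from 0.58 to 0.92 with a median of 0.82, the highest being Myh11 with Mylk. With Acta1, the same 8 genes gave r between 0.19 and 0.45. With Tagln, r was between 0.24 and 0.63. All these values share the scaling of each library, and the members are not independent of one another, so they are given without a test.

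The libraries thus ranked from muscle-rich to muscle-poor within every group. The summed level of the 8 members was highest in CDmetf M2 at 4926 CPM and next in HFDmetf M1 at 4116 CPM. It was lowest in CD M1 at 1606 CPM, followed by HFD M3 at 1797 CPM. CD M1, CDmetf F1, CDmetf F3, HFD M1, HFD M3, HFD F1 and HFDmetf F3 had 0 of the 8 members above their median over all libraries, and CD F1, CD F2, CDmetf M2, CDmetf M3, HFDmetf M1 and HFDmetf M2 had all 8. In such tissue, fewer muscle cells and less RNA per muscle cell cannot be told apart.

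**Figure D2:**
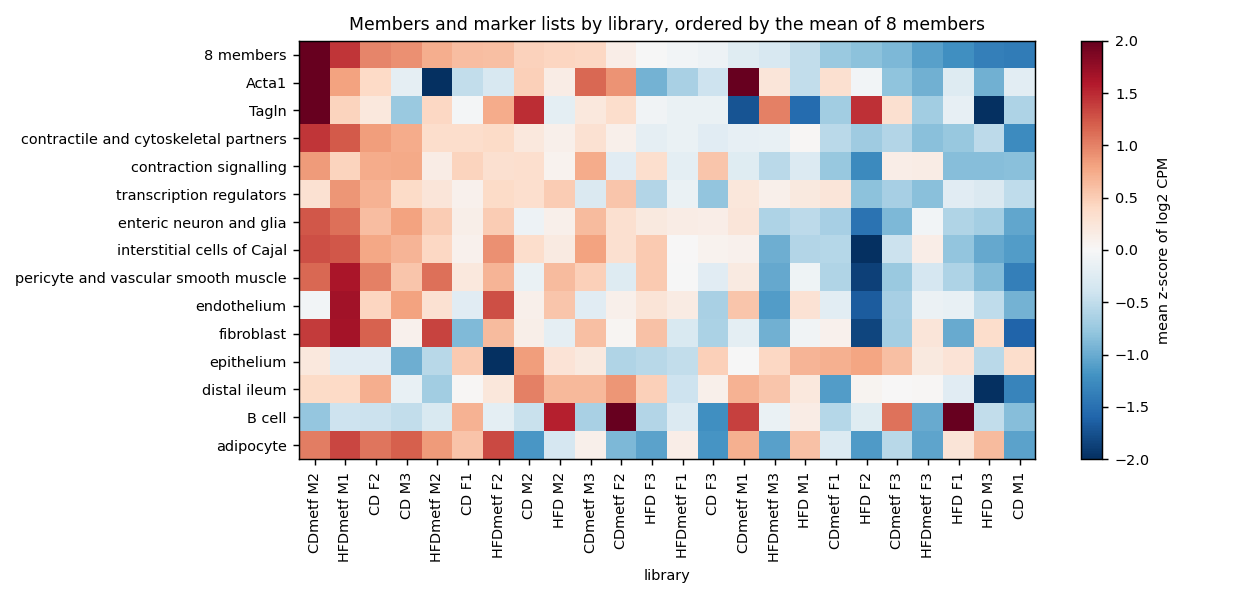
Mean z-score of log2 CPM (colour) of the 8 abundant members, Acta1, Tagln and 12 lists of marker and pathway genes (rows) in the 24 libraries (columns), ordered by the mean of the 8 members. The rows of the contractile partners, the enteric neurons and glia, the interstitial cells of Cajal and the pericytes and vascular smooth muscle run from red to blue in much the same order. The rows of B cells and the epithelium do not.

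Other genes of the gut wall rose and sank with the members across libraries, as a description over 24 libraries. The mean z-score of 25 contractile and cytoskeletal partners, such as filamin A (Flna) and tropomyosin (Tpm1), had r = 0.94 (Spearman's rho 0.94) with the mean of the 10 members. The list of 12 enteric neuron and glia markers had r = 0.83 (rho 0.83). Interstitial cells of Cajal, the pacemaker cells that lie between the muscle layers, had r = 0.77 (rho 0.86) over 5 markers including Kit and Ano1. These 3 relations held within groups, after subtraction of group means (r = 0.94, 0.81 and 0.72), and among the 8 libraries of each replicate number, where r was between 0.68 and 0.98. They were not particular to the muscle layer and its nerve and pacemaker cells. Pericyte and vascular smooth muscle markers, for which no r was computed, had mean z-scores of 1.15 in CDmetf M2 and 1.64 in HFDmetf M1, the most muscle-rich libraries. In CD M1 and HFD M3, the poorest, they had -1.37 and -0.87.

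Fibroblast markers such as Col3a1 and Dcn gave r = 0.62 (rho 0.60), but only 0.05 among the libraries of replicate number 3. Adipocyte markers such as Fabp4 gave r = 0.47 (rho 0.47), with 0.79, 0.59 and 0.21 among the libraries of numbers 1, 2 and 3. Markers of the epithelium gave r = -0.24 (rho -0.33) and those of B cells r = -0.10 (rho -0.02). Leaving out the 2 libraries farthest from the median of each list gave 0.91 for the partners, 0.86 for neurons and glia, 0.85 for interstitial cells, 0.58 for fibroblasts, 0.55 for adipocytes, -0.14 for the epithelium and -0.01 for B cells.

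Likeness of pattern was measured over all tested genes as Pearson's r with the members' mean z-score. Pgm5, a protein of muscle attachment sites, came first (r = 0.94 over 24 libraries). Slc2a4, the insulin-responsive glucose transporter of muscle and fat, was second (r = 0.93), followed by Osr1 (0.93), Pcp4l1 (0.92), Pdlim7 (0.91), Jph2 (0.89), Igsf9b (0.89), Fzd2 (0.89), Rbpms2 (0.89) and Pcbp3 (0.89). Pgm5 and Pdlim7 are also on the list of partners. Slc2a4 reached 42.4 CPM in CDmetf M2 against a mean of 15.1 CPM over all libraries.

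Acta1 was highest in CDmetf libraries, and the range within that group was wider than any difference between group medians. In CDmetf its level was 0.519 CPM in the lowest library, 8.41 at the median and 56.0 in the highest. The 3 male libraries held the most, with 56.0 CPM in CDmetf M1 (217 reads, exact Poisson 95% interval 48.8 to 63.9 for counting error only), 40.9 in CDmetf M2 (137 reads, 34.4 to 48.4) and 9.89 in CDmetf M3 (305 reads, 8.81 to 11.1). The female libraries CDmetf F1, CDmetf F2 and CDmetf F3 held 2.93, 6.93 and 0.519 CPM. Of the 6 CDmetf libraries, 4 were thus above every CD library, and F3 was below all of them.

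In the other groups Acta1 was low, and in some of their libraries it was near the limit of detection. The CD libraries ran from 0.877 to 3.70 CPM with a median of 1.37, which rested on 6 to 19 reads. The HFD libraries ran from 0.406 to 2.29 CPM with a median of 1.06, and the lowest of them held 1 read, whereas HFD F1 held 54 (1.26 CPM). In HFDmetf the median was 0.905 CPM and the highest library, HFDmetf M1, had 6.00 CPM, whereas HFDmetf M2 had 0 reads, which allows a level of up to 0.936 CPM by a limit of 3 reads, the exact 95% interval ending at 1.15 CPM. Acta1 overlapped between all pairs of groups compared.

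**Figure D3:**
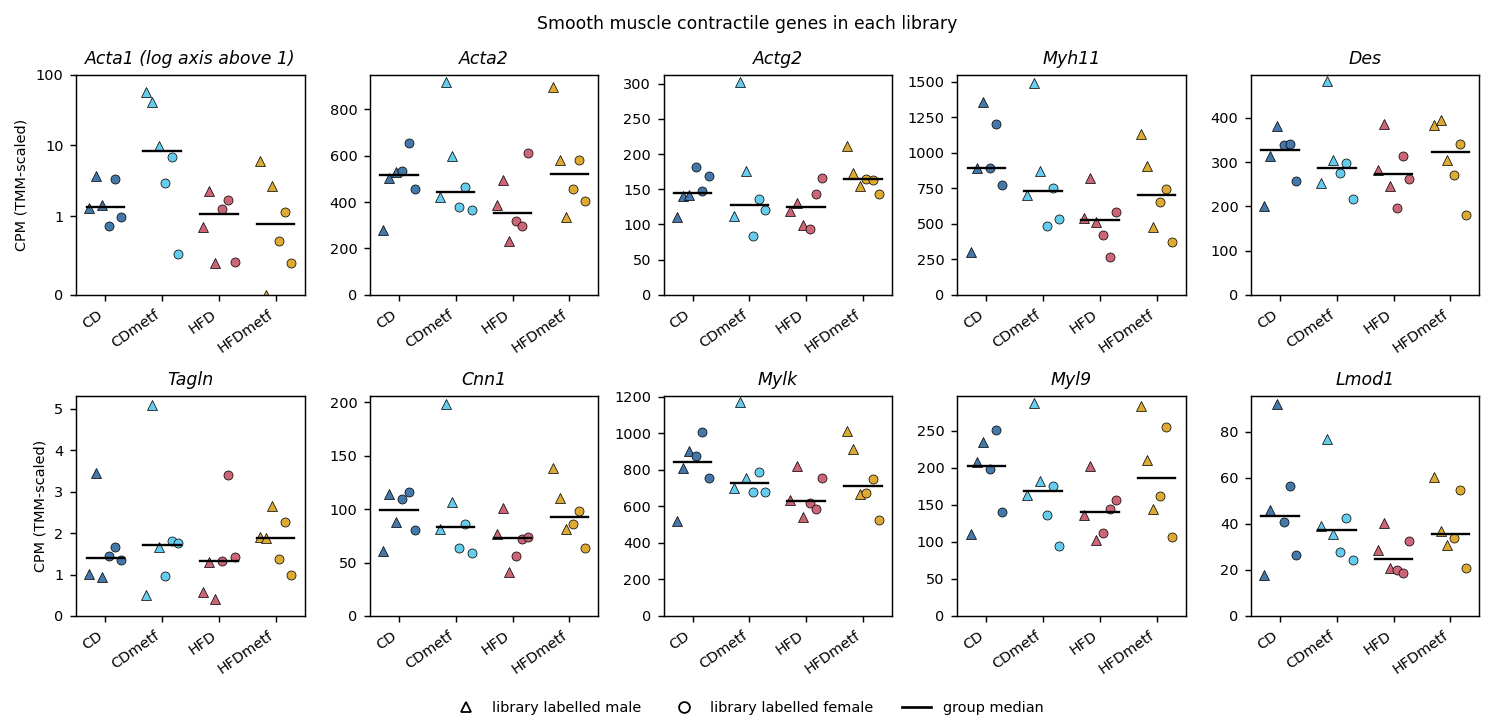
CPM of each member (vertical axis, linear from 0 except for Acta1, which is logarithmic above 1) in the 4 groups (horizontal axis). Triangles are libraries labelled male, circles those labelled female, each ordered by replicate number, and bars are group medians. Acta1 stands out in the CDmetf males at 9.89 to 56.0 CPM, and CDmetf M2 is the highest CDmetf library for the other 9 members.

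Between the metformin-treated diets, the comparison that chose it, the fitted log2 fold change of Acta1 (HFDmetf vs. CDmetf) was -2.91 (SE 0.67). In CDmetf vs. CD, which shares the CDmetf libraries, it was 2.59 (SE 0.67). Without CDmetf M1 and CDmetf M2, a choice made after seeing the values, these became -1.93 and 1.75. In HFDmetf vs. HFD the value was 0.24 (SE 0.74), and it turned to -0.59 with limma-voom. Acta1 was measured on few reads in most libraries, and a fold of such a gene is only as firm as those reads.

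The rest of the contractile set did not share this pattern. In HFDmetf vs. CDmetf the other 8 members tested had log2 fold changes between -0.12 (Myh11) and 0.18 (Myl9). In CDmetf vs. CD they lay between -0.25 (Myh11) and 0.05 (Acta2). CDmetf M1, the library with the most Acta1, ranked only the 15th of 24 in the mean of the 8 abundant members, whereas CDmetf M2 ranked first.

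**Figure D4:**
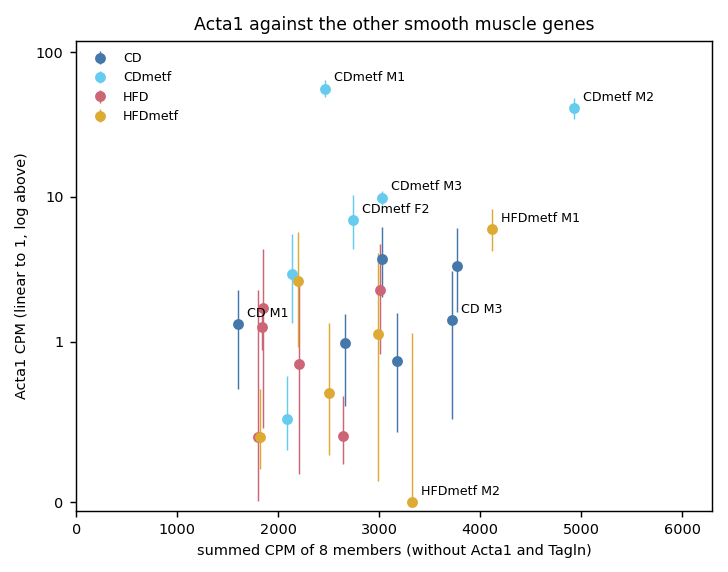
Acta1 in CPM (vertical axis, linear to 1 and logarithmic above) against the summed CPM of the 8 abundant members (horizontal axis) in the 24 libraries, coloured by group. Vertical lines are exact Poisson 95% intervals, which cover counting error only. CDmetf M1 has 56.0 CPM of Acta1 at an ordinary sum of 2466 CPM, and CDmetf M2 has 40.9 at the highest sum.

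Acta1 is the main actin of skeletal muscle, so the other genes of that tissue were read in the same libraries. Of 14 skeletal muscle markers, 9 had a mean under 1 CPM and Myh4, a fast myosin, had 0 reads in all 24 libraries. In both CDmetf M1 and CDmetf M2, Tnnt3, Tnni2, Tnnc2, Myh1, Myh2 and Pvalb had 0 reads. Their means over all libraries were only 0.0020 (Tnnc2) to 0.124 CPM (Tnni2), so 0 reads there say little. Mylpf had 4 reads in CDmetf M1 and 6 in CDmetf M2, and Myl1 had 5 in each. Actn3 was highest in CDmetf M2, at 1.49 CPM (5 reads). Creatine kinase (Ckm) was at 2.06 CPM in CDmetf M1 and at 6.57 CPM in CDmetf M2, the lowest library being at 1.43 and CDmetf M2 the highest. The summed level of the list was 12.1 to 19.5 CPM in CD, 9.11 to 30.4 in CDmetf, 9.80 to 28.2 in HFD and 8.42 to 23.1 in HFDmetf. Titin (Ttn) made up 21.9 of the 29.4 CPM in CDmetf M1, its highest library, against a mean of 7.14 CPM and 5.68 CPM in CDmetf M2.

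Cardiac muscle markers were as scarce, with a summed level of 3.20 to 11.8 CPM over the 24 libraries. The cardiac actin Actc1 was between 0 and 3.57 CPM. Among the 4 muscle actins, compared per length, Acta2 made up a median of 69.4% and Actg2 29.3%, whereas Acta1 made up 0.414% at the median, 12.1% in CDmetf M1 and 4.17% in CDmetf M2. Actb, the actin of all cells, was far above them at a median of 88.1% of all actin per length. Genes with a pattern like that of Acta1 over the 24 libraries included the lysosomal sialidase Neu1 (r = 0.78), Fam83e (0.77), the sterol reductase Tm7sf2 (0.77) and Mfhas1 (0.77).

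High-fat diet against control diet, both without metformin, was the diet comparison that the choice of the members had not used. All 9 members tested were lower in HFD than in CD, by log2 values between -0.15 (Des) and -0.81 (Myh11), with a median of -0.42 against -0.0047 for all 14076 genes, of which 51.2% were lower. In the quasi-likelihood test of edgeR no member passed (Benjamini-Hochberg adjusted p = 1.00 for each of the 9). DESeq2 and limma-voom passed 0 members as well, whereas limma-voom with sample quality weights, which counts deviating libraries less, passed 5 (Myh11, Cnn1, Myl9, Lmod1 and Mylk) along with 1428 of all genes. By unadjusted p under 0.05, 3 of the 9 were called, all lower, against 4.63% of all genes in either direction and 2.04% lower. The 9 genes rise and sink together, so these are not 9 independent readings.

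Myh11, the heavy chain of smooth muscle myosin, was the largest of the 3. Its level was 305, 894 and 1355 CPM in the lowest, median and highest CD library, and 269, 526 and 825 CPM in HFD, with 4 of 6 CD libraries above every HFD library. The log2 fold change was -0.81 (SE 0.31, unadjusted p = 0.0158). Lmod1 was at 17.6, 43.4 and 92.0 CPM in CD and at 18.7, 24.8 and 40.6 CPM in HFD. Its log2 fold change was -0.74 (SE 0.31, unadjusted p = 0.0263). Again 4 of 6 CD libraries were above every HFD library, and the lowest library of all was a CD library, CD M1.

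Cnn1 stood at 60.9, 98.8 and 116 CPM in CD and at 41.02, 73.1 and 101 CPM in HFD. Its log2 fold change was -0.45 (SE 0.21, unadjusted p = 0.0460). The groups overlapped for each of these 3 genes, as for every other member. For Myl9 the value was -0.42 (SE 0.21, unadjusted p = 0.0609), for Acta2 -0.32 (SE 0.27, unadjusted p = 0.245), for Mylk -0.30 (SE 0.17, unadjusted p = 0.103), for Actg2 -0.26 (SE 0.22, unadjusted p = 0.244) and for Des -0.15 (SE 0.17, unadjusted p = 0.376). Acta1 had -0.56 (SE 0.72, unadjusted p = 0.444).

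**Figure D5:**
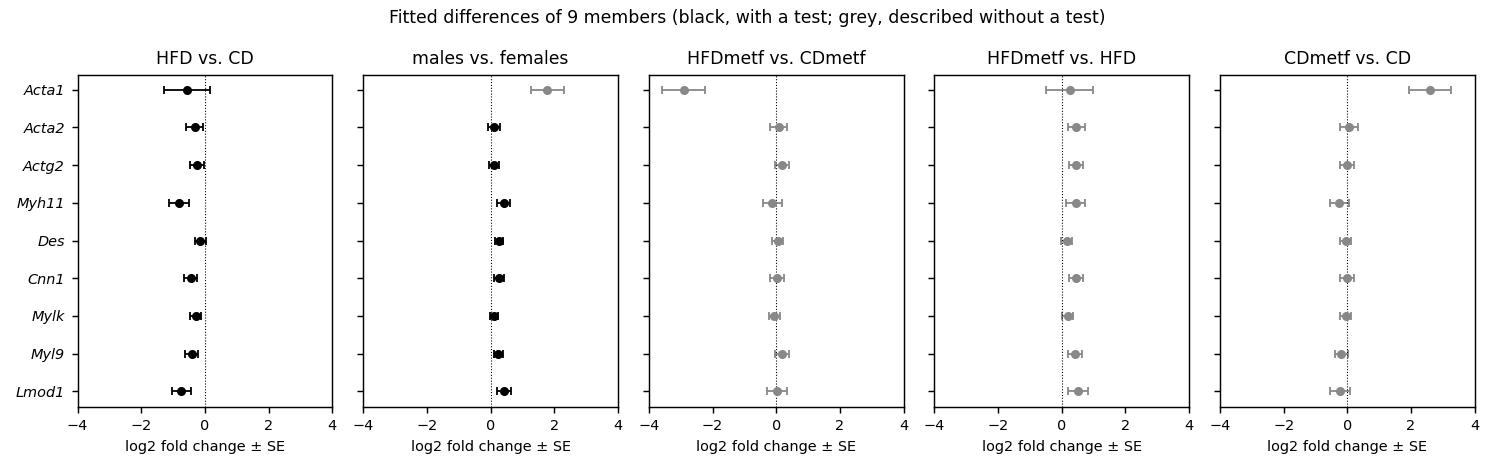
Fitted log2 fold change with its standard error (horizontal axis) of the 9 members tested (vertical axis) in 5 comparisons, black with a test and grey as a description. All points lie below 0 in HFD vs. CD and above 0 in males vs. females, and in the comparisons that use the CDmetf libraries Acta1 lies far from the other members.

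The 3 calls depended on which libraries were kept. Without CD M3, 0 of 10 members, Tagln then passing the filter, had an unadjusted p under 0.05. Lmod1 went to -0.36 (unadjusted p = 0.204), Myh11 to -0.64 (unadjusted p = 0.0593), and Cnn1 stayed at -0.45 (unadjusted p = 0.0591). Without HFD M2 and HFD F2 the count was again 0, with Myh11 at -0.64 (unadjusted p = 0.0706). Within replicate numbers, the mean of the HFD minus CD differences was below 0 for 9 of 9 members in number 1, 8 of 9 in number 2 and 9 of 9 in number 3, with medians of -0.14, -0.44 and -0.52. Single pairs of the same labelled sex and number were mixed. The male pair of number 1 was higher in HFD for all 8 abundant members (Myh11 by 0.82, Lmod1 by 0.71). The female pair of number 3 was higher for 5 of them (Acta2, Des, Mylk, Myl9 and Lmod1). The pairs of number 2 use HFD M2 and HFD F2, whose sex-linked transcripts went against the label, so their match in sex is doubtful. As labelled, Acta1, Actg2, Myh11 and Cnn1 were lower in HFD in 5 of 6 pairs, Acta2, Myl9 and Lmod1 in 4, and Des and Mylk in 3. Leaving out HFD F3 gave 6 calls and leaving out CD M1 gave 5, so that the count depended on single animals in both directions, and without CD F1, CD F2, HFD M3 or HFD F2 it was 1.

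Partners of the contractile apparatus lay on the same side. Of 25 such genes 21 were lower in HFD, with a median log2 value of -0.32, and 3 were called by unadjusted p, all lower. These 3, named after their values were seen, were the tropomyosin Tpm2 (-0.71, SE 0.29, unadjusted p = 0.0234), caldesmon (Cald1; -0.70, SE 0.28, unadjusted p = 0.0209) and Mustn1 (-0.57, SE 0.25, unadjusted p = 0.0356). Of the 4 most abundant partners, Flna was at -0.41 (SE 0.28), Tpm1 at -0.09 (SE 0.15), Tns1 at -0.45 (SE 0.27) and Myl6 at 0.03 (SE 0.15).

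Of 20 genes that signal for contraction 19 were lower, with a median of -0.36. The 3 called by unadjusted p, named after their values were seen, were Ppp1r14a, an inhibitor of myosin phosphatase (-0.50, SE 0.22), Cacnb2, a calcium channel subunit (-0.65, SE 0.29), and the muscarinic receptor Chrm2 (-0.59, SE 0.27). Among the most abundant, the calcium pump Atp2a2 had -0.10 (SE 0.15), the phosphatase subunit Ppp1r12a -0.16 (SE 0.11), the phosphodiesterase Pde5a -0.18 (SE 0.12) and Rhoa 0.01 (SE 0.10). Of 14 transcription regulators of the lineage 10 were lower and 0 were called, with a median of -0.14, Klf4 at 0.08 (SE 0.34) and Mrtfb at -0.08 (SE 0.15).

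Markers of other cells of the wall were read in the same comparison, and of the lists in this paragraph only Nos1 among the neuron markers (-1.27, SE 0.48) and Retn among the adipocyte markers (-3.38, SE 1.32) had an unadjusted p under 0.05. Enteric neuron and glia markers were lower in 8 of 9 tested (median -0.56), and their summed level was 28.3 to 96.2 CPM in CD and 27.7 to 74.3 in HFD. Markers of interstitial cells of Cajal were lower in 5 of 5 (median -0.52), summing to 58.4 to 162 CPM in CD and 34.5 to 136 in HFD. Pericyte and vascular muscle markers, led by Rgs5, were lower in 5 of 6 (median -0.23, 262 to 779 CPM in CD and 268 to 789 in HFD). Adipocyte markers were lower in 5 of 6 (median -1.89, 24.6 to 381 CPM in CD and 23.5 to 179.5 in HFD). Their summed medians were nearly the same, however, at 84.5 CPM in CD and 81.9 in HFD.

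B cell markers, by contrast, were higher in HFD in 6 of 6 (median 2.05, 5.22 to 48.8 CPM in CD and 11.0 to 232 in HFD). Each had an unadjusted p under 0.05, against 4.63% of all genes, and 0 passed after adjustment. The rise rested on HFD F1 and HFD M2, with mean z-scores of 2.02 and 1.56. HFD M1, HFD M3, HFD F2 and HFD F3 had 0.15, -0.49, -0.25 and -0.59. These lay within the CD range of -1.22 (CD F3) to 0.69 (CD F1). Sex-linked transcripts of HFD M2 went against its label. The 6 genes mark the same cells, so these are not 6 independent readings. Markers of the epithelium were higher in HFD in 6 of 8, but their median was 0.02 (8975 to 13449 CPM in CD and 10060 to 14362 in HFD). Fibroblast markers were lower in 4 of 6 (median -0.03, 263 to 1123 CPM in CD and 281 to 765 in HFD) and endothelial markers in 3 of 6 (median -0.00, 60.7 to 142 CPM in CD and 38.8 to 150 in HFD). No marker of these lists was at 0 in all libraries. The part of the makeup of the tissue pieces in the lower muscle values was not tested.

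The balance between the actins was compared within libraries, where the scaling of a library has no influence. The log2 ratio of Acta2 to Actg2 was 1.59 ± 0.37 (SD, n = 6) in HFD and 1.71 ± 0.31 in CD, a difference of -0.12 (exact two-sided permutation test, p = 0.558, adjusted p = 0.558 over 2 ratios). The log2 ratio of Acta1 to Actg2 was -6.88 ± 1.00 in HFD and -6.39 ± 0.95 in CD, a difference of -0.48 (exact permutation p = 0.403, adjusted p = 0.558). Neither difference was larger than the spread between animals, and the smallest p that 924 splits allow is 0.00216.

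Metformin on the high-fat diet went with higher values of the contractile genes, given without a test because HFDmetf vs. HFD shares the HFDmetf libraries with the comparison that chose Acta1. All 9 members tested were higher in HFDmetf than in HFD, by log2 values between 0.15 (Des) and 0.52 (Lmod1). Their median was 0.43, against 0.03 for all 14076 genes, of which 46.1% were lower. Markers of neurons and glia (9 of 9, median 0.83) and interstitial cells of Cajal (5 of 5, 0.55) were higher too. So were those of fibroblasts (6 of 6, 0.56), pericytes (6 of 6, 0.51), endothelium (6 of 6, 0.43) and adipocytes (6 of 6, 1.54). Epithelial markers were lower in 7 of 8 (median -0.24) and B cell markers in 6 of 6 (-2.29), with HFD F1 and HFD M2 again high. The part of these cells in the muscle values was not tested. Actg2 was at 93.5, 125 and 166 CPM in the lowest, median and highest HFD library and at 143, 164 and 211 CPM in HFDmetf (log2 0.44, SE 0.22). Every HFDmetf library exceeded the HFD median of Actg2, although the groups overlapped. Without HFDmetf M1, the most muscle-rich of them, the median of the members was 0.23.

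For Cnn1 the medians were 73.1 CPM in HFD and 92.2 in HFDmetf (log2 0.45, SE 0.21), and for Myl9 they were 140 and 186 CPM (log2 0.41, SE 0.21). Acta2 stood at 353 and 519 CPM (log2 0.46, SE 0.27). HFD vs. CD and HFDmetf vs. HFD share the HFD libraries, so that low HFD values enter both with opposite sign. In CDmetf vs. CD the members went both ways, from -0.25 (Myh11) to 2.59 (Acta1) with a median of -0.05, and the difference between the diets was not tested.

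Males and females were compared over all groups, and Acta1 is described without a test because the CDmetf and HFDmetf libraries that chose it enter here as well. All values go by the labelled sex, also for HFD M2 and HFD F2, whose sex-linked transcripts went against the label. The level of Acta1 in the 12 libraries labelled male was 0, 2.47 and 56.0 CPM (lowest, median and highest). In the 12 libraries labelled female it was 0.404, 1.06 and 6.93 CPM. The fitted log2 fold change was 1.79 higher in males (SE 0.52), and the male library was the higher of the pair of the same group and number in 9 of 12 pairs. Without CDmetf M1 and CDmetf M2, the 2 males with the most Acta1, the value was 1.34.

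The other 8 members had positive values too, all under 1.5-fold, but no firm difference. Their log2 values were between 0.10 (Actg2) and 0.41 (Lmod1). Actg2 turned to -0.027 without CDmetf M2 and Acta2 to -0.020 without HFDmetf M1, and the median of Actg2 was 141 CPM in males and 145 CPM in females. By unadjusted p under 0.05, 1 of these 8 members was called, against 7.27% of all genes in either direction and 4.62% higher in males. This was Des (0.25, SE 0.12, unadjusted p = 0.0438, adjusted p = 0.671), at 200, 310 and 483 CPM in males and 181, 274 and 341 CPM in females. It lost its call without CD M3 (unadjusted p = 0.106) and without HFD M2 and HFD F2 (unadjusted p = 0.0747), and leaving out single libraries left 0 of the 8 called in 17 of 24 fits and 5 without CD M1 or HFD F3.

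Partners were higher in males in 23 of 25, with a median of 0.22. Over all genes the median was 0.02, and 46.2% were lower in males. Of the partners 4 were called, among them Smtn (0.34, SE 0.16), Hspb6 (0.56, SE 0.24) and Tns1 (0.44, SE 0.19), named after their values were seen. Of the signalling genes 13 of 20 were higher (median 0.10, 0 called) and of the regulators 12 of 14 (median 0.17), Mef2d being called (0.26, SE 0.12). Enteric neuron and glia markers were higher in males in 9 of 9 (median 0.37), fibroblast markers in 6 of 6 (0.34) and adipocyte markers in 6 of 6 (1.75). The part of these markers in the muscle values was not tested.

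The replicate number, which the labels give from 1 to 3 in each group and sex, was compared last because every number occurs in every group. It separated the libraries broadly, with 36.8% of all genes at an unadjusted p under 0.05 and 16.6% at an adjusted p under 0.05. Of the 8 members other than Acta1, 3 had an unadjusted p under 0.05, a share near that background. They were Myl9 (unadjusted p = 0.0126, adjusted p = 0.0622), Des (unadjusted p = 0.0137, adjusted p = 0.0651) and Cnn1 (unadjusted p = 0.0154, adjusted p = 0.0692). Median Myl9 was 149, 209 and 143 CPM in the libraries of numbers 1, 2 and 3, and median Des was 274, 341 and 260 CPM, so that number 2 was the highest for both. Without CDmetf M2 alone the count was 1, and without CD M3 it was 5. Depth differed between the numbers as well. Libraries of number 2 had 1829690 (HFDmetf F2) to 3466430 (CD M2) reads on genes. Those of number 1 had 2977391 (CDmetf F1) to 40606442 (HFD F1), and those of number 3 2296520 (HFDmetf M3) to 40384234 (CDmetf F3). The part of depth in the differences between numbers was not tested.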

How the data were processed

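RNA was sequenced from the distal small intestine of 24 mice. The authors deposited raw read counts per gene: per their methods, reads were trimmed with Trimmomatic 0.39, and STAR 2.5.3a aligned them to GRCm38 and gave the counts, and the strand counted is not given in the sources used here. The 4 rows of unmapped, multimapping, outside-gene and ambiguous reads (18.3%, 5.94%, 19.0% and 4.74% of all) name no gene and were left out. Of 55536 gene IDs, 55450 were named from the reference annotation.

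Counts were filtered with filterByExpr (14076 genes kept), normalised by TMM and fitted with edgeR 4.0.16 (R 4.3.3) quasi-likelihood with group, sex and replicate number, Benjamini-Hochberg adjusted, 17 residual degrees of freedom. The standard error is the log2 fold change over the root of F. The replicate number was used in place of the block of the study's methods, although no source used here states that they are the same. Of 36 pairs from different groups that share labelled sex and number, 20 had correlated deviations over 0.1 (median 0.12), against 16 of 72 with other numbers (median -0.07). Log2 CPM uses a prior count of 1. Alternatives were RLE normalisation, no filter, DESeq2 1.42.0, limma-voom 3.58.1 with and without quality weights, no replicate block, the 12 libraries compared, and fits without single or doubtful libraries. Simulated data tested the scripts.

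The members, lists and tests were chosen with earlier results of these data known. All 10 members are named, with up to 4 genes of highest mean CPM per list, the 10 genes most correlated with the members and those among the 5 most correlated with Acta1. Some genes that these rules would name are not reported here. HFDmetf vs. CDmetf chose Acta1, so it, HFDmetf vs. HFD and CDmetf vs. CD carry no p. Males vs. females and the replicate number use the same libraries, so there Acta1 carries no p and is not counted. Relations over the members carry none either. With 1829690 to 40606442 reads per library, depth limits Acta1 and Tagln most.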

Additional observations from a re-analysis of the deposited data

Results flagged for a closer look

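In 7 of 40 groups of 6 values (10 members in 4 groups), the highest library stood apart from the others by more than Dixon's 95% limit. Chance flags about 1 group in 20, and the members rise and sink together, so these are not 7 separate events. CDmetf M2 accounts for 5 of them, with Des at 483 CPM, Tagln at 5.08, Cnn1 at 198, Mylk at 1173 and Lmod1 at 77.1 CPM, against next values of 305, 1.81, 106, 785 and 42.8 CPM. In the same library the partners summed to 6046 CPM and the enteric neuron and glia markers to 136 CPM, the highest of the 24. The other flags concern Tagln alone, at 3.44 CPM in CD M2 (13 reads) and 3.41 CPM in HFD F2 (8 reads). Acta1 itself was not flagged in CDmetf, since its 2 high libraries lie close to each other.

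In CDmetf vs. CD, 3 members were higher in all 3 male pairs of the same replicate number and lower in all 3 female pairs. The mean log2 differences were 0.54 in males and -0.44 in females for Acta2, 0.48 and -0.58 for Actg2, and 0.50 and -0.55 for Cnn1. These 3 genes are correlated over the 24 libraries (r = 0.78 to 0.89), so they are not 3 separate events. CD M1 and CDmetf M2, the libraries poorest and richest in the 8 abundant members, both enter male pairs. The share of all genes with such a split was not counted, and the difference between the sexes was not tested.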

How the results depend on the processing

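The direction of HFD vs. CD held in 305 of 306 values of the members over all alternatives, the exception being Acta1 with limma-voom (0.33). Of these 306 values, 84 had an unadjusted p under 0.05. The alternatives refit mostly the same libraries and the members rise and sink together, so these are not 306 separate readings. Fits without a CDmetf or HFDmetf library keep every HFD and CD library, so their direction could hardly change. The count of members with an unadjusted p under 0.05 was 3 and became 1 with limma-voom, 7 with sample quality weights added, and 0 without CD M3 or without HFD M2 and HFD F2, while leaving out single libraries gave 0 to 6. At an adjusted p under 0.05 the count was 0, and 5 with quality weights. DESeq2 passed 13 of all genes. The count over all genes, 652, became 1390 without the filter on low counts, 990 with limma-voom and 3627 with quality weights, and 480 to 1211 without single libraries, 1078 of them without CD M1 and 1211 without HFD F3. For males vs. females, 1 of the 8 members other than Acta1 was called, and 0 without the filter, with limma-voom, without CD M3, without HFD M2 and HFD F2, or without CDmetf M1 and CDmetf M2, the last chosen after seeing the data, while quality weights gave 2. Leaving out single libraries gave 0 to 5, with 5 without CD M1 or HFD F3. The sex difference of Actg2 went to -0.0020 without CDmetf M1 and CDmetf M2 and ran from -0.027 without CDmetf M2 to 0.17 without HFD F3, and that of Acta2 to -0.020 without HFDmetf M1. For the replicate number, 3 of these 8 were called, against 5 with quality weights or without CD M3, 0 without CDmetf M1 and CDmetf M2, and 1 to 5 without single libraries. Without the replicate block, 2 members and 538 genes were called in HFD vs. CD and 0 members between the sexes. With the ratios paired by replicate number and labelled sex (replicate block), exact sign-flip tests gave p = 0.25 for Acta1 to Actg2 and p = 0.656 for Acta2 to Actg2. The causes of these shifts were not tested. Depth limits Acta1, which rested on 0 to 305 reads per library.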

Other observations

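Markers of the exocrine pancreas summed to 43.3 CPM in CD M1, the library poorest in muscle genes, against at most 30.8 CPM in the other 3 groups. Of 9 such markers 4 were tested, all lower in HFD than in CD, and 3 had an unadjusted p under 0.05, against 4.63% of all genes. They were Ctrb1 (log2 -4.17, SE 1.25, unadjusted p = 0.00299, adjusted p = 1.00 by edgeR's quasi-likelihood test), Pnlip and Cpa1, all named after their values were seen. Each was highest in CD M1, and their CD medians were 0.828, 0.0261 and 0.158 CPM. The list summed to a median of 3.71 CPM in CD and 3.30 in HFD, so these p-values say little about the typical library. Amy2a5 was at 0 reads in all libraries. Of the distal ileum markers, Fabp6 had a log2 value of 0.02 (SE 0.94) in HFD vs. CD, Slc10a2 -1.37 (SE 0.90) and Fgf15 0.76 (SE 0.74).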
